A study of Mus musculus with 6 samples.

Results

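The clustered histone genes were followed in primary cultures of mouse hippocampal neurons after a short rise in cyclic AMP. They were taken as every row of the deposited gene count table whose symbol starts with Hist1h, Hist2h, Hist3h or Hist4h, which gave 68 of 37411 gene rows, and were grouped by the core type read from the symbol: 6 H1, 19 H2A, 18 H2B, 12 H3 and 13 H4 genes. The neurons came from hippocampi of newborn (P0) CD-1 IGS mice, an outbred strain, and were kept 16 days in vitro; the labels name no genetic change in either group. The control group was 3 libraries of cultures given dimethyl sulfoxide (DMSO), the solvent, for 30 min (libraries 1, 2 and 3). The treated group was 3 libraries of cultures given forskolin, which activates adenylyl cyclase and so raises cyclic AMP, at 50 µM for 30 min (libraries 4, 5 and 6). Total counts ran from 28342764 to 47548379 per library, and the 68 genes took 0.148, 0.104 and 0.0953% of them with DMSO and 0.0748, 0.0674 and 0.0346% with forskolin (library order 1 to 3 and 4 to 6, as everywhere here). Library 6 stood apart from libraries 4 and 5 in its histone counts, and libraries 4 and 5 held more RNA of microglial and proliferation genes than the other 4, so that results resting on library 6 are given with and without it.

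Histones H2A, H2B, H3 and H4 form the protein core around which DNA is wound into nucleosomes, and H1 binds the linker DNA between them. Most of their genes lie in dense clusters, lack introns, and are transcribed mainly in S phase, when new DNA has to be packaged; their mRNAs typically end in a conserved stem-loop in place of a poly(A) tail, and that stem-loop is bound by the protein encoded by Slbp. Neurons no longer divide, and histones made outside S phase come largely from single genes elsewhere in the genome whose mRNAs carry a poly(A) tail, such as H3f3b and H2afz; some clustered genes also give polyadenylated transcripts in differentiated cells. Whether the libraries were made from total or from polyadenylated RNA is not given in the sources used here.

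The stem-loop is the element these mRNAs share, and its letters separate H4 from the other core types. A stem-loop of 16 bases was found in the annotated transcripts of 46 of the 68 genes. It opened with GGCCC in 10 of the 12 H4 genes that had it. The other 2 H4 genes opened with GGTCC. All 34 genes of the other core types that had it opened with GGCTC. Across all core types the most frequent full form, in 26 genes, was that of Hist1h2ae. The element is given as DNA, 5′ to 3′ on the coding strand (GRCm38), in capitals with 5 bases on either side in lower case, for H4 genes with each stem variant or loop and for named genes of the other types.
Hist1h4h: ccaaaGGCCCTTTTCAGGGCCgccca
Hist1h4j: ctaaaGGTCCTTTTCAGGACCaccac
Hist1h4i: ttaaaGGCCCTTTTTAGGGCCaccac
Hist1h4a: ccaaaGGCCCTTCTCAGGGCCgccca
Hist1h3e: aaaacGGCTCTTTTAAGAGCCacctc
Hist1h3g: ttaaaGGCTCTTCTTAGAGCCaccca
Hist1h2ae: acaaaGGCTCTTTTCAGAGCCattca
Hist3h2ba: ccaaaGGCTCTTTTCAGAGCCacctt
Hist1h1c: caaaaGGCTCTTTTCAGAGCCaccac
These sites lie at chr13:23531453-23531478 (plus strand) for Hist1h4h, chr13:21735432-21735457 (plus) for Hist1h4j, chr13:22040961-22040986 (minus) for Hist1h4i and chr13:23760795-23760820 (minus) for Hist1h4a. The H3 sites lie at chr13:23561898-23561923 (minus) for Hist1h3e and chr13:23535884-23535909 (plus) for Hist1h3g. The others lie at chr13:23570663-23570688 (minus) for Hist1h2ae, chr11:58949344-58949369 (plus) for Hist3h2ba and chr13:23739507-23739532 (plus) for Hist1h1c. All are in the 3′ untranslated part of an annotated exon.

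Along the genome (GENCODE annotation of GRCm38) the Hist1 genes formed 2 dense blocks on chromosome 13, with 23 genes in 328 kb from position 21715763 and 31 genes in 404 kb from position 23531050, and Hist1h2al, annotated as a processed pseudogene, stood alone at position 51202727. The 10 Hist2 genes lay within 50.3 kb of chromosome 3, Hist3h2ba and Hist3h2a within 7.91 kb of chromosome 11, and Hist4h4 on chromosome 6. The annotated transcript ended within 100 bases after the stem-loop in 23 genes, ran further past it in 23, and held no stem-loop in 22. Several of the 22, such as Hist1h2ai and Hist1h3h, are annotated only to the end of the coding sequence, with no 3′ untranslated part to search. Many of the 68 genes are near copies: the 13 H4 genes encode 1 identical protein and the 12 H3 genes 3 proteins. Of the 68 genes, 42 share at least 50% of their 31-base stretches with other genes. How the authors' counting shared reads among such copies is not given in the sources used here, so values of single H4, H3 and H2A genes are uncertain where copies are close, and the sums over a core type are given beside them.

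All 5 core types had a lower summed level, relative to library size, in every forskolin library than in any DMSO library, and H4 differed most. CPM values are counts relative to library sizes scaled by TMM, edgeR's correction for composition. The 68 genes together summed to 1309, 1066 and 944 CPM with DMSO and to 756, 731 and 353 CPM with forskolin. The means were 1106 ± 186 (SD, n = 3) and 613 ± 226 (SD, n = 3) CPM, a log2 ratio of −0.85. Library 6 held the lowest sum, and without it the log2 ratio was −0.59. In RNA from whole cultures, fewer cells of a type and less of the RNA per cell cannot be told apart. The sums give no p-value here, because the set was chosen with results of these data known.

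**Figure D1:**
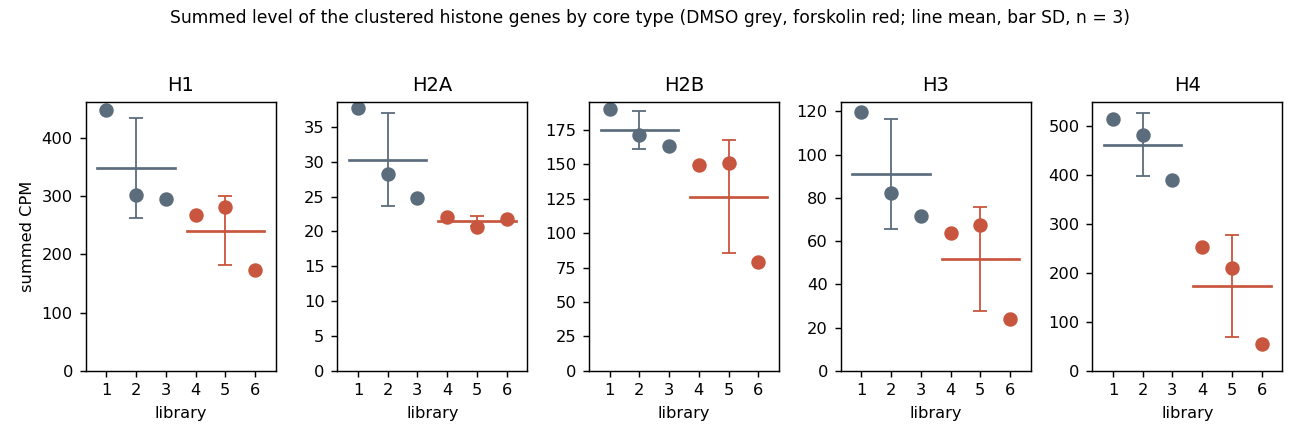
Summed CPM (vertical axis, from 0) of the clustered histone genes of each core type in DMSO libraries 1 to 3 (grey) and forskolin libraries 4 to 6 (red); lines are group means and bars the SD of 3 libraries. The groups do not overlap in any panel, and library 6 is the lowest for H1, H2B, H3 and H4, with 54.6 CPM for H4.

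In the test of single genes, 2 clustered histone genes were lower with forskolin and none was higher, although most had negative estimates. Of the 68 genes, 7 held 0 counts in every library (3 counts, the limit that a count of 0 allows, would be 0.0637 to 0.0984 CPM), and 54 passed the filter on low counts. The fitted log2 fold change was negative in 46 of these 54 (85.2%), with a median of −0.89, against 48.2% negative and a median of 0.02 over the 16233 genes tested. With clustered histone genes of identical annotated proteins summed to 1 row each, 20 of 26 tested rows were negative, with a median of −0.66. By edgeR's quasi-likelihood test with Benjamini-Hochberg adjustment over all tested genes, Hist1h2ae and Hist3h2ba were called lower (3.7% of 54), beside 1.34% of all tested genes called lower and 0.172% called higher. At an unadjusted p under 0.05, 24 of the 54 were lower and 1 was higher, beside 11.7% of all tested genes lower and 10.6% higher. In 30 of the 54 genes (55.6%) every forskolin library lay below every DMSO library, beside 16.2% of all tested genes, and in 4 (7.41%) every forskolin library lay above, beside 10.3%.

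The count of calls depended on the fit. DESeq2 called 15 of the 54 lower and 1 higher, beside 6.03% and 4.9% of all genes; limma-voom with library quality weights called 20 lower and 3 higher, beside 20.9% and 21%; and limma-voom without weights called 1 lower and none higher, beside 1.19% and 0.148%. Without library 6, edgeR called 16 of 55 genes lower (29.1%) and 1 higher, beside 17.1% and 16.5% of all genes. Leaving out any of libraries 1, 2, 3, 4 or 5 left no gene of the whole table past the edgeR threshold, with 1945 to 3216 genes at an unadjusted p under 0.05.

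**Figure D2:**
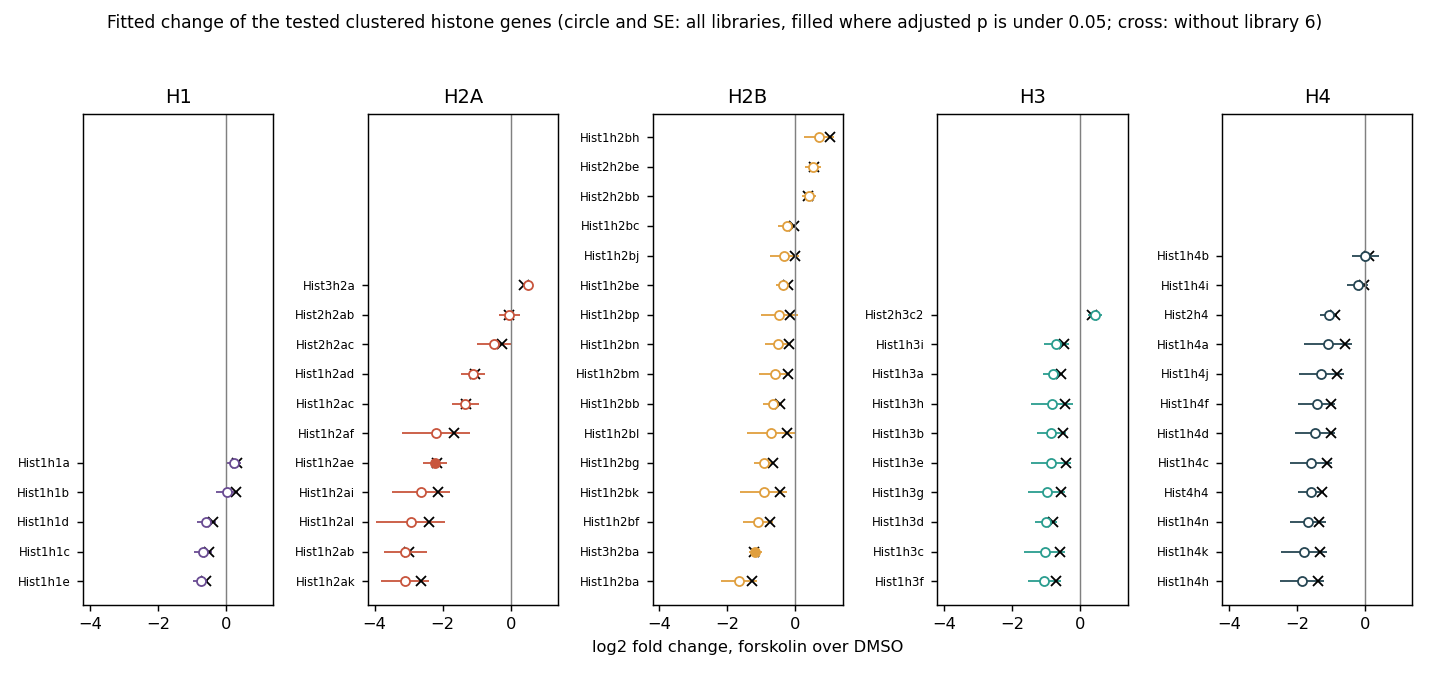
Fitted log2 fold change, forskolin over DMSO (horizontal axis), of each tested gene by core type; circles with SE bars are from all 6 libraries, filled where the adjusted p is under 0.05 (Hist1h2ae and Hist3h2ba), and crosses leave out library 6. The H2A genes reach furthest below 0, to −3.11 for Hist1h2ak, and most crosses of H2B, H3 and H4 genes lie nearer to 0 than their circles.

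Hist3h2ba, an H2B gene of the chromosome 11 block, held 549, 505 and 454 counts with DMSO and 278, 255 and 239 with forskolin. The groups did not overlap, and library 6 was close to 4 and 5. Its level was 15.5 ± 2.4 CPM (SD, n = 3) with DMSO and 6.84 ± 0.833 CPM (SD, n = 3) with forskolin. It fell by 1.18 on the log2 scale (SE 0.19; edgeR adjusted p = 0.0417), and the estimate without library 6 was −1.23 (edgeR adjusted p = 0.00729). Its neighbour Hist3h2a, an H2A gene read in the same direction downstream of it, had 325, 353 and 449 counts with DMSO and 713, 522 and 623 with forskolin. Its forskolin libraries were all above its DMSO libraries in CPM, with 11.4 ± 1.23 against 16.4 ± 1.94 CPM (SD, n = 3 each) and a fitted log2 fold change of 0.52 (SE 0.16; edgeR adjusted p = 0.147), which did not pass the threshold. Trim17, annotated over 33% of the Hist3h2a exon on the same strand, had 2.22, 2.2 and 3.45 CPM with DMSO and 1.81, 2 and 3.08 CPM with forskolin.

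Hist1h2ae, an H2A gene of the larger Hist1 block, held 74, 56 and 41 counts with DMSO and 17, 15 and 11 with forskolin. All 3 forskolin libraries were low, and library 6 did not stand apart from 4 and 5. Its level was 1.77 ± 0.584 CPM (SD, n = 3) with DMSO and 0.377 ± 0.0578 CPM (SD, n = 3) with forskolin. It fell by 2.22 on the log2 scale (SE 0.36; edgeR adjusted p = 0.0426), and the estimate without library 6 was −2.15 (edgeR adjusted p = 0.011). With 1 library left out at a time, the estimates ran from −2.46 to −1.96 for Hist1h2ae and from −1.31 to −1.08 for Hist3h2ba. Both calls ended when any of the other 5 libraries was left out, with edgeR adjusted p of 0.132 to 0.313 and 0.134 to 0.324, respectively. They also ended when DESeq2's median-ratio factors replaced TMM in edgeR (0.0512 and 0.0524) or the trend on GC content was taken out library by library (0.168 and 0.241), with estimates then of −2.05 and −0.85.

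**Figure D3:**
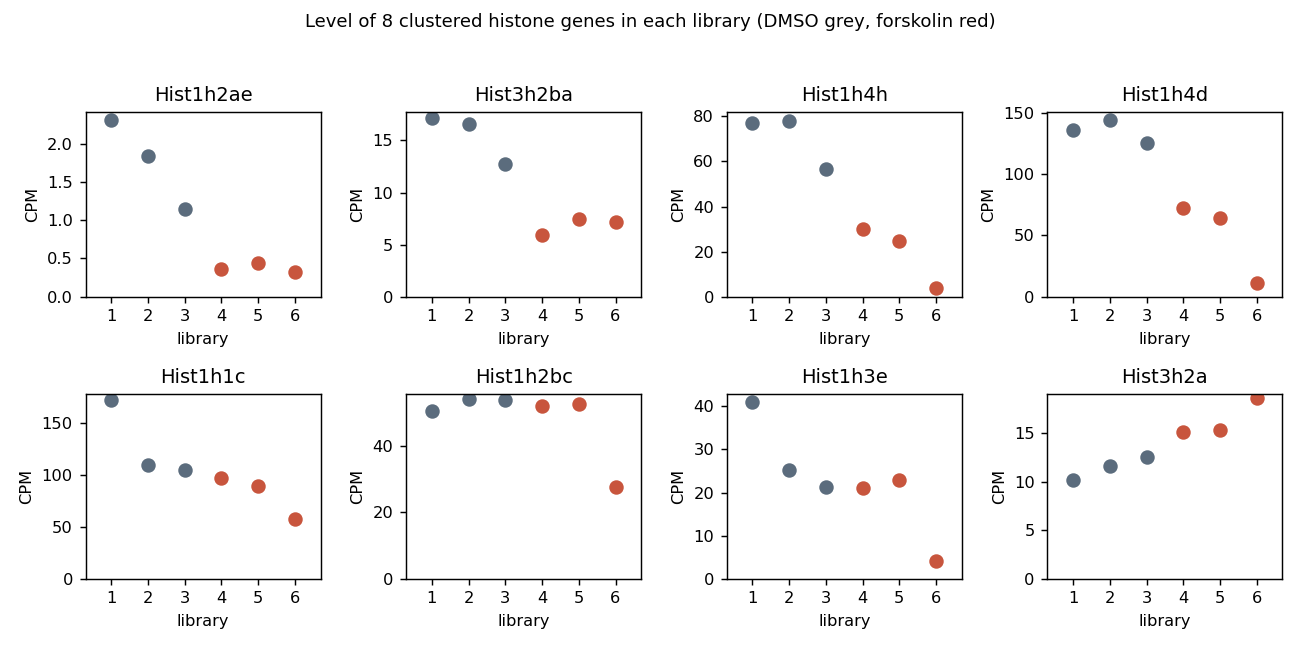
CPM (vertical axes, from 0) of 8 clustered histone genes in DMSO libraries 1 to 3 (grey) and forskolin libraries 4 to 6 (red). Hist1h2ae and Hist3h2ba are low in all 3 forskolin libraries, the H4 genes Hist1h4h and Hist1h4d are low in all 3 and lowest in library 6, Hist1h2bc and Hist1h3e are lowest in library 6 alone, and Hist3h2a is higher in all 3.

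H4, which pairs with H3 to seed the nucleosome, had the largest difference in summed level. Its 13 genes summed to 514, 482 and 390 CPM with DMSO and to 254, 211 and 54.6 CPM in forskolin libraries 4, 5 and 6. All 3 forskolin sums were below the DMSO sums, with library 6 4.25-fold below the mean of 4 and 5. The log2 ratio of the group means was −1.42, and −1.01 without library 6. Of the H4 genes, 12 were tested, 11 had negative estimates (median −1.44) and 9 had groups that did not overlap, all with the forskolin libraries lower, beside 16.2% of all tested genes. None passed the adjusted threshold, and 8 were lower at an unadjusted p under 0.05, beside 11.7% of all tested genes. Without library 6 edgeR called 7 of the 12 lower, beside 17.1% of all genes. DESeq2 on all libraries called 6 lower, beside 6.03%.

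Per kilobase of transcript, the H4 genes with the highest DMSO levels were Hist1h4h (150 CPM per kb), Hist1h4d (119) and Hist1h4c (88.7). Hist1h4h had 2462, 2381 and 2023 counts with DMSO and 1412, 841 and 130 with forskolin, and a fitted log2 fold change of −1.85 (SE 0.64; edgeR adjusted p = 0.174). Hist1h4d had 4354, 4386 and 4486 counts with DMSO and 3390, 2177 and 382 with forskolin, and a fitted log2 fold change of −1.46 (SE 0.59; edgeR adjusted p = 0.212). Hist1h4c had 2781, 2242 and 2060 counts with DMSO and 1803, 995 and 173 with forskolin, and a fitted log2 fold change of −1.58 (SE 0.63; edgeR adjusted p = 0.206). In each of these genes libraries 4 and 5 were below the DMSO libraries in CPM and library 6 was far below 4 and 5, so that the spread within the forskolin group was wide. Without library 6 all 3 passed the threshold at smaller changes, with log2 fold changes of −1.38, −1.01 and −1.12 and edgeR adjusted p of 0.0043, 0.00322 and 0.0102, respectively.

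The H4 genes outside Hist1 were also lower in every forskolin library. Hist4h4, the H4 gene of chromosome 6, had 41.9, 40.1 and 30.4 CPM with DMSO and 17.4, 14.4 and 5.64 CPM with forskolin. Hist2h4 had 18.5, 24.6 and 19.6 CPM with DMSO and 10.8, 12.3 and 6.72 CPM with forskolin. Their groups did not overlap, and the fitted log2 fold changes were −1.58 (SE 0.39; edgeR adjusted p = 0.105) and −1.07 (SE 0.25; edgeR adjusted p = 0.0958). Without library 6, Hist4h4 passed the threshold at a log2 fold change of −1.25. Hist1h4b and Hist1h4i had overlapping groups and log2 fold changes of 0.01 and −0.21, whose signs changed with the processing. These 4 genes, and Hist1h1a, Hist1h1b and Hist1h1t among the H1 genes, fall outside the naming rule and were chosen after their values were seen.

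H3, the core histone with the most modified tail, summed to 120, 82 and 71.5 CPM with DMSO and to 63.5, 67.4 and 23.8 CPM with forskolin. Libraries 4 and 5 lay just below DMSO library 3, and library 6 was 2.75-fold below their mean. The log2 ratio was −0.82, and −0.49 without library 6. Of 10 tested H3 genes, 9 had negative estimates (median −0.85), 5 had all forskolin libraries below all DMSO libraries, 1 had them above (beside 16.2% and 10.3% of all tested genes), and none passed the adjusted threshold. At an unadjusted p under 0.05, 2 were lower, beside 11.7% of all tested genes. Hist1h3e, the H3 gene with the highest mean CPM, had 1311, 766 and 756 counts with DMSO and 992, 778 and 141 with forskolin. Its groups overlapped in CPM, only library 6 lay well below the DMSO libraries, and the log2 fold change was −0.86 (SE 0.59; edgeR adjusted p = 0.412). It was −0.42 without library 6 (edgeR adjusted p = 0.273) and −0.52 without library 1. Hist1h3i and Hist1h3a had log2 fold changes of −0.7 and −0.8 (SE 0.37 and 0.3; edgeR adjusted p = 0.308 and 0.192), and the groups overlapped for Hist1h3i and not for Hist1h3a. The estimate of Hist1h3i turned to 0.26 with the GC trend removed and was −0.31 without library 1, and that of Hist1h3a was −0.28 with the GC trend removed. Hist2h3c2, of the chromosome 3 cluster, had 2.31, 2.23 and 2.44 CPM with DMSO and 3.33, 2.7 and 3.43 CPM with forskolin, all higher, with a log2 fold change of 0.44 (SE 0.22; edgeR adjusted p = 0.278), and of 0.97 with the GC trend removed.

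H2B, the partner of H2A in the nucleosome, summed to 190, 172 and 163 CPM with DMSO and to 150, 151 and 79.3 CPM with forskolin. Libraries 4 and 5 were close to each other and a little under the DMSO libraries, and library 6 was 1.9-fold below them. The log2 ratio was −0.47, and −0.24 without library 6. Of 16 tested H2B genes, 13 had negative estimates (median −0.56), 6 had all forskolin libraries below all DMSO libraries (16.2% of all tested genes), 2 had them above (10.3% of all), and 1, Hist3h2ba, was called lower (1.34% of all). The count of 2 of 16 is close to the share of all genes. Hist1h2bc, the H2B gene with the highest level per kilobase (45.7 CPM per kb with DMSO), had 50.4, 54.2 and 53.9 CPM with DMSO and 52, 52.7 and 27.6 CPM with forskolin. Its libraries 4 and 5 lay among the DMSO values and only library 6 was lower, with a log2 fold change of −0.26 (SE 0.24; edgeR adjusted p = 0.547), and −0.03 without library 6. Hist1h2bg had 21.5, 23.5 and 22.2 CPM with DMSO and 12.3, 16.3 and 6.93 CPM with forskolin, with a log2 fold change of −0.92 (SE 0.29; edgeR adjusted p = 0.157). Its groups did not overlap, and it passed the threshold without library 6 (log2 fold change −0.66, edgeR adjusted p = 0.0198). Hist1h2bb had a log2 fold change of −0.66 (SE 0.28; edgeR adjusted p = 0.222), with groups that did not overlap; it was −0.44 without library 1 and −0.4 with the GC trend removed.

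The H2B genes with the highest estimates did not move alike over the forskolin libraries. Hist1h2bh had 157, 82 and 100 counts with DMSO and 326, 250 and 89 with forskolin, a log2 fold change of 0.7 (SE 0.44; edgeR adjusted p = 0.374). Libraries 4 and 5 were above all DMSO libraries in CPM and library 6 lay just below them; without library 6 it was the 1 clustered histone gene that edgeR called higher, at 1.02 (edgeR adjusted p = 0.0387). Hist2h2be, known in mice for an H2B variant of olfactory sensory neurons, had 5.81, 3.77 and 5.39 CPM with DMSO and 8.52, 6.35 and 6.45 CPM with forskolin, a log2 fold change of 0.51 (SE 0.24; edgeR adjusted p = 0.264). Hist2h2bb had 2.9, 2.56 and 2.86 CPM with DMSO and 3.42, 3.91 and 3.64 CPM with forskolin, a log2 fold change of 0.4 (SE 0.2; edgeR adjusted p = 0.291), and of 0.61 with the GC trend removed. Both of these Hist2 genes were higher in every forskolin library, library 6 included. Gm20628, annotated over the whole of Hist2h2bb on the opposite strand, had 28, 27 and 16 counts with DMSO and 118, 64 and 69 with forskolin; the strand setting of the counting is not given in the sources used here, so reads of the 2 genes cannot be told apart.

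H2A had the lowest summed level of the core types and the lowest single-gene estimates. Its 19 genes summed to 37.7, 28.3 and 24.8 CPM with DMSO and to 22, 20.7 and 21.8 CPM with forskolin, a log2 ratio of −0.49. Library 6 did not stand apart in this sum (−0.52 without it), but DMSO library 1 was the highest, and without it the ratio was −0.28. Hist3h2a alone took 10.1, 11.6 and 12.6 of the DMSO CPM and 15.1, 15.3 and 18.6 of the forskolin CPM, and it differed in the other direction. The other 18 genes, summed apart after their values were seen, came to 27.6, 16.7 and 12.2 CPM with DMSO and to 6.9, 5.32 and 3.2 CPM with forskolin, a log2 ratio of −1.87. Among single tested H2A genes, library 6 was the lowest of the 6 libraries in 8 of 11 (72.7%), beside 23.8% of all tested genes. Of 11 tested H2A genes, 10 had negative estimates (median −2.19), 8 had all forskolin libraries below all DMSO libraries (16.2% of all tested genes), 1 had them above (10.3% of all), and 1, Hist1h2ae, was called lower (1.34% of all). At an unadjusted p under 0.05, 7 were lower and 1, Hist3h2a, was higher, beside 11.7% and 10.6% of all tested genes. The counts of 1 of 11 on the higher side are close to the shares of all genes. Of the H2A genes, 8 reached a DMSO mean of 1 CPM. The filter asks for enough counts in 3 libraries. Hist1h2ab, Hist1h2ad, Hist1h2af, Hist1h2ai, Hist1h2ak and Hist1h2al had too few with forskolin and passed through their DMSO libraries. Genes that pass in this way are mostly lower with forskolin by selection. The counts of lower H2A genes, and in part those over all tested clustered histone genes, are therefore no independent support for a decrease. Hist1h1t, higher with forskolin, did not pass.

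The lowest estimates rested on few counts. Hist1h2ak had 156, 75 and 74 counts with DMSO and 29, 13 and 2 with forskolin, a log2 fold change of −3.11 (SE 0.72; edgeR adjusted p = 0.092). Hist1h2ab had 94, 37 and 22 counts with DMSO and 9, 7 and 5 with forskolin, a log2 fold change of −3.09 (SE 0.64; edgeR adjusted p = 0.0729). Hist1h2ai had 92, 39 and 25 counts with DMSO and 24, 7 and 1 with forskolin, a log2 fold change of −2.63 (SE 0.86; edgeR adjusted p = 0.16), and of −1.56 with the GC trend removed. The groups did not overlap in CPM in any of these genes, and library 1 was the highest in each. Hist1h2al, the annotated pseudogene, had 167, 158 and 119 counts with DMSO and 58, 17 and 0 with forskolin, where 0 allows up to 0.0896 CPM in library 6; its log2 fold change was −2.94 (SE 1; edgeR adjusted p = 0.17). Without library 6, Hist1h2ak, Hist1h2ab and Hist1h2al passed the threshold, with edgeR adjusted p of 0.011, 0.0275 and 0.0105.

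H2A and H2B genes sit head to head: 12 such divergent pairs had start sites within 500 bases of each other. In 2 of them, with Hist1h2bq and Hist1h2br, neither gene had a mean of over 3 DMSO counts. In 9 of the other 10 the H2B gene had the higher DMSO level per kilobase, and for Hist1h2ac and Hist1h2bc the ratio was 121. These ratios depend on the annotated lengths. Hist1h2ac and Hist1h2bc had 0.937 and 52.8 CPM with DMSO over 2482 and 1156 bases. The exception, Hist2h2ac and Hist2h2be, had 1.6 and 4.99 CPM over 520 and 2620 bases, so its H2B gene was the higher in CPM. In all 6 pairs with both genes tested the H2A gene had the lower estimate, with log2 differences (H2A minus H2B) from −2.59 to −0.01, which were not tested. Every one of the 19 H2A genes has an annotated gene on the opposite strand over part or all of its exon, and for 16 of them these genes are in the count table with 0 counts in every library. Hist2h2aa1 and Hist2h2aa2 themselves held 0 counts, while the genes on the opposite strand that overlap them, Gm20633 and Gm20632, had 57 to 122 and 48 to 132 counts per library. The part of these overlaps in the low H2A counts was not tested.

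H1, the linker histone, summed to 448, 302 and 294 CPM with DMSO and to 267, 281 and 173 CPM with forskolin, a log2 ratio of −0.53. DMSO library 1 was far above the others, and the ratio was −0.29 without it and −0.36 without library 6. Library 5 lay just below library 3. Of 5 tested H1 genes, 3 had negative estimates (median −0.58) and none passed the threshold, with 2 at an unadjusted p under 0.05, both lower, beside 11.7% of all tested genes. Hist1h1c had 172, 110 and 105 CPM with DMSO and 97.6, 89.6 and 57.6 CPM with forskolin, a log2 fold change of −0.66 (SE 0.27; edgeR adjusted p = 0.211). Hist1h1e had 151, 108 and 102 CPM with DMSO and 78.9, 82.7 and 54.9 CPM with forskolin, a log2 fold change of −0.74 (SE 0.22; edgeR adjusted p = 0.141). Their groups did not overlap, and Hist1h1e passed the threshold without library 6 (edgeR adjusted p = 0.0475). Hist1h1d had overlapping groups and a log2 fold change of −0.58 (SE 0.28; edgeR adjusted p = 0.27). Without library 1 the estimates of Hist1h1c and Hist1h1d were −0.38 and −0.33, and that of Hist1h1d was −0.37 without library 6 and −1.08 with the GC trend removed. Hist1h1a and Hist1h1b, with overlapping groups, had estimates of 0.23 and 0.03. That of Hist1h1a was 0.41 without library 1, 0.11 without library 2, 0.08 without library 5 and 0.41 with the GC trend removed, and the sign of Hist1h1b changed with the processing. Hist1h1t, the testis form, held 3, 4 and 1 counts with DMSO and 14, 10 and 14 with forskolin and did not pass the filter.

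By position, the 29 tested genes of the larger Hist1 block had a median log2 fold change of −1 (26 negative), the 15 of the other Hist1 block −0.72 (14 negative), and the 6 of the Hist2 block 0.18 (3 negative). By annotated end, the median was −1 in 21 tested genes whose transcript runs past the stem-loop, −0.93 in 17 that end at it, and −0.71 in 16 without one. With the GC trend removed these 3 medians were −0.86, −0.45 and −0.01, and 8 of 16 estimates were then negative in the genes with no annotated stem-loop. Also without library 6 the 3 medians were −0.73, −0.14 and 0.33. Several transcripts of the last class are annotated only to the end of the coding sequence, so that class describes the annotation and not the mRNA. The 3 classes also had unlike GC content, with medians of 50.9, 59.4 and 63%. The differences in log2 fold change were not tested.

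Library 6 lay below libraries 4 and 5 in 47 of the 54 tested genes (87%), beside 47.6% of all tested genes. Its CPM relative to the mean of 4 and 5 had a median of 0.185 for H4, 0.33 for H3, 0.373 for H2B, 0.616 for H1 and 0.752 for H2A genes, beside 0.949 for all tested genes. Libraries 4 and 5 were both below every DMSO library in 30 of the 54 (55.6%), beside 32.5% of all tested genes. The estimates also varied with base composition. Over the 54 genes, the log2 fold change had Pearson's r = −0.438 and Spearman's rho = −0.302 with the GC content of the longest transcript; the genes share their libraries and many of their sequences, so no p is given. With each library's trend on GC content removed, no gene of the table passed the edgeR threshold, 17 of the 54 were lower at an unadjusted p under 0.05, beside 5% of all tested genes, and 40 of the 54 estimates were negative, beside 7974 of the 16233. The median was then −0.65 over the 54 and 0.01 over all tested genes. By core type it was −1.44 for H2A, −1.12 for H4, −0.46 for H1, −0.43 for H3 and −0.37 for H2B genes, each nearer 0 than before.

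**Figure D4:**
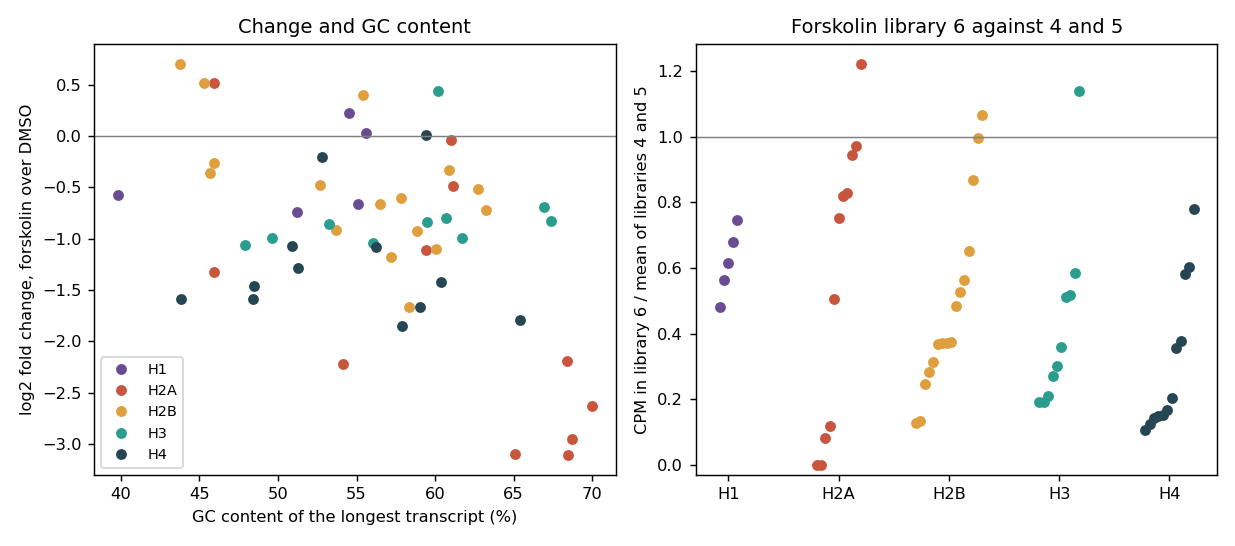
Left, fitted log2 fold change (forskolin over DMSO) of each tested gene against the GC content of its longest transcript in percent, coloured by core type. Right, CPM in forskolin library 6 divided by the mean of libraries 4 and 5, 1 point per gene; the H4 genes have the lowest median, 0.185, and Hist3h2a lies highest, at 1.22.

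Promoters are shown for the called genes and their neighbours and for the H4 genes with the highest level per kilobase, as RefSeq sequence (GRCm38.p6), 5′ to 3′, with motif matches in capitals. Motifs were searched on both strands. The TATA box, which positions the polymerase, was searched as TATAAA, and the box bound by the factor NF-Y as CCAAT. The octamer, known from H2B promoters, was searched as ATTTGCAT. The full cAMP response element, the site of CREB, was searched as TGACGTCA. Its core, TGACG, is contained in every full element and is not in capitals where it stands alone. The first window is the whole stretch between the start sites of Hist1h2ae (left end, minus strand) and Hist1h2bg (right end, plus strand); the others are the 200 bases before the start site.
Hist1h2ae to Hist1h2bg: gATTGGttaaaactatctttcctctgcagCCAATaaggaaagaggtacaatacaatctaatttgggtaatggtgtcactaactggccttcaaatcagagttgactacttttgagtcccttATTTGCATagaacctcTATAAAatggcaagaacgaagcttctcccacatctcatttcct
Hist3h2ba: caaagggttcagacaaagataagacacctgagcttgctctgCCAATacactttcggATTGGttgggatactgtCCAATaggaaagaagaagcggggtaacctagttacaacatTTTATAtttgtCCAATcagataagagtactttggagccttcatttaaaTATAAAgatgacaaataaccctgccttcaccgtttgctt
Hist3h2a: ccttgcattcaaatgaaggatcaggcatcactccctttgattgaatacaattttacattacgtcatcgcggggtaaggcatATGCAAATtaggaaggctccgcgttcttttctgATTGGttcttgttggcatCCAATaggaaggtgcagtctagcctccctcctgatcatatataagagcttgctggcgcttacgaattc
Hist1h4h: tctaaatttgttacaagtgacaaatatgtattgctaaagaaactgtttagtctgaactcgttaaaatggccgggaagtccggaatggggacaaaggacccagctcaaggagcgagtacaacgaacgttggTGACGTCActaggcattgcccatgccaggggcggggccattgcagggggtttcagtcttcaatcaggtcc
Hist1h4d: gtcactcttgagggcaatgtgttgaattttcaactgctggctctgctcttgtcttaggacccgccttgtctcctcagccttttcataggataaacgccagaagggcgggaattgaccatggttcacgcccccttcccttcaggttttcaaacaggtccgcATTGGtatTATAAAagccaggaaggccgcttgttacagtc
They lie on the plus strand at chr13:23571221-23571399, chr11:58948711-58948910, chr11:58954485-58954684, chr13:23530844-23531043 and chr13:23581368-23581567, respectively. Hist1h2ae and Hist1h2bg, with estimates of −2.22 and −0.92, share 1 octamer, 2 CCAAT boxes and 1 TATA box in 179 bases. Hist3h2ba has 4 CCAAT boxes and Hist3h2a 2 CCAAT boxes and 1 octamer.

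Of the 68 genes, 62 had a RefSeq promoter of 250 bases before and 50 after the start. TATAAA was in 56.5% of these, beside 13.6% of all 32851 promoters in the RefSeq table. CCAAT was in 85.5% (37.4% of all promoters), which was every H1, H2A, H2B and H3 promoter and 25% of the H4 promoters. ATTTGCAT was in 13 of the 62 (1.74% of all promoters), all of them H2A or H2B. TGACGTCA was in 4 (6.45%, beside 1.79% of all promoters): Hist1h2ag, Hist1h2bj, Hist1h4a and Hist1h4h. Of these, Hist1h4a, Hist1h4h and Hist1h2bj were tested and had estimates of −1.08, −1.85 and −0.33, none past the threshold. Without library 6 these were −0.59, −1.38 and −0.00462, and Hist1h4h then passed it (edgeR adjusted p = 0.0043). That of Hist1h2bj was also −0.12, −0.51 and −0.62 without library 1, 3 or 4, and turned to 0.19 with the GC trend removed. TGACG was in 48.4% (20.8% of all promoters). Promoters of a divergent pair can overlap, so that 1 site counts for both genes. The TGACGTCA of Hist1h2ag is also that of Hist1h2bj, and the octamer of Hist1h2ae is also that of Hist1h2bg. A match here describes letters, not binding.

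Replacement histone genes, which lie outside the clusters, had estimates nearer 0 in the median, a difference that was not tested. Of the 11 on the list (H1f0, H1fx, H2afj, H2afv, H2afx, H2afy, H2afy2, H2afz, H3f3a, H3f3b and Cenpa), 8 had negative estimates with a median of −0.24; edgeR called none, 4 had an unadjusted p under 0.05, all lower (beside 11.7% of all tested genes), and DESeq2 called 4 lower, beside 6.03% of all genes. H3f3b, a gene for the replacement histone H3.3, had 206, 190 and 197 CPM with DMSO and 238, 231 and 190 CPM with forskolin, a log2 fold change of 0.15 (SE 0.13; edgeR adjusted p = 0.498), which turned to −0.0752 with the GC trend removed. H2afz, the gene for H2A.Z, had 33 to 34.6 CPM with DMSO and 23.5 to 27.5 CPM with forskolin, groups that did not overlap, and a log2 fold change of −0.39 (SE 0.11; edgeR adjusted p = 0.128). H1f0, the replacement linker histone, had overlapping groups and a log2 fold change of −0.11 (SE 0.15; edgeR adjusted p = 0.691). It was −0.04 without library 6 and turned to 0.0537 with the GC trend removed and without library 6.

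Of 22 genes for histone mRNA transcription and processing, 10 had negative estimates with a median of 0.06; edgeR called none, 2 were lower and 5 higher at an unadjusted p under 0.05 (beside 11.7% and 10.6% of all tested genes), and DESeq2 called 1 lower and 4 higher, beside 6.03% and 4.9%. Slbp had 18.3, 17.7 and 18.4 CPM with DMSO and 22.2, 20.7 and 21.6 CPM with forskolin, all higher, with a log2 fold change of 0.25 (SE 0.11; edgeR adjusted p = 0.246). Of 16 histone chaperone genes, 5 had negative estimates with a median of 0.12; edgeR called none, 1 was lower and 3 higher at an unadjusted p under 0.05, beside 11.7% and 10.6% of all tested genes, and DESeq2 called 2 higher, beside 4.9%.

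Proliferation genes were given beside the clustered histone genes because the clustered genes are transcribed in S phase. The 27 genes summed to 314, 282 and 316 CPM with DMSO and to 435, 546 and 304 CPM with forskolin, so that libraries 4 and 5 were above the DMSO libraries and library 6 was among them. Of the 27, 25 had estimates above 0, with a median of 0.35; edgeR called none, 7 were higher at an unadjusted p under 0.05 (beside 10.6% of all tested genes), and DESeq2 called 3 higher, beside 4.9% of all genes. Without library 6 edgeR called 11 higher, beside 16.5% of all genes. Mki67, a marker of cycling cells, had 17.3, 11.9 and 20.2 CPM with DMSO and 30.9, 67.9 and 19.4 CPM with forskolin, a log2 fold change of 1.26 (SE 0.46; edgeR adjusted p = 0.184).

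Markers of the cell types in such cultures also moved with the libraries. All 12 microglial markers together summed to 23.6 to 36.5 CPM with DMSO and to 250, 405 and 26.1 CPM in libraries 4, 5 and 6, with Siglech at 0 or 1 count in every library; 10 of the 11 tested were higher at an unadjusted p under 0.05 (beside 10.6% of all tested genes) and edgeR called none. The 14 neuronal markers, all detected in every library, summed to 5224 to 6607 CPM with DMSO and to 3833, 4105 and 6159 CPM in libraries 4, 5 and 6; Rbfox3, which encodes the neuronal nuclear protein NeuN, was called lower at 69.2, 84.5 and 80.2 CPM with DMSO and 37.8, 42.8 and 47.2 CPM with forskolin (log2 fold change −0.87, SE 0.13; edgeR adjusted p = 0.0392). This call ended when any of libraries 1 to 5 was left out (edgeR adjusted p of 0.137 to 0.313). The 12 oligodendrocyte lineage markers summed to 946 to 1023 CPM with DMSO and 1220, 1685 and 765 CPM with forskolin. The 10 astrocyte markers summed to 7146 to 7868 CPM and 7838, 8673 and 7069 CPM, and the 9 vascular and meningeal markers to 97.6 to 212 CPM and 274, 103 and 88.8 CPM, with Cldn5, an endothelial marker, at 0 counts in 5 libraries. In library 6 the microglial, neuronal and proliferation sums lay within the DMSO range, and the oligodendrocyte, astrocyte and vascular sums lay below it. The part of these shifts in the histone values was not tested.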

How the data were processed

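RNA was sequenced in 6 libraries from cultured mouse hippocampal neurons, 3 with DMSO and 3 with forskolin, extracted with Trizol and chloroform per the labels' protocols. The authors deposited counts as whole numbers for each gene symbol and library; Salmon, DESeq and the build GRCm38 are named per the submitters' processing notes, without their role. The annotation, the strand setting and the treatment of reads shared by copies are not given in the sources used here. Each count column matched 1 library by its label, and the authors' own results table was not used. Total counts of 28342764 to 47548379 per library leave genes of few counts with counting error beside the spread between libraries. Nothing states that the libraries came from separate cultures, so p-values measure the spread between these samples, which may be technical.

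Counts were analysed in R 4.3.3 with edgeR 4.0.16: filterByExpr (minimum count 10, minimum total 15), TMM, glmQLFit and glmQLFTest with an intercept and the group over all 6 libraries, and Benjamini-Hochberg adjustment over all 16233 tested genes, threshold 0.05. The fit was tested on simulated data. Alternatives were DESeq2 1.42.0, limma-voom (limma 3.58.1) with and without quality weights, other scaling factors and filters, removal of each library's GC trend, copies with identical proteins summed, and each library left out.

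Symbols were matched to GENCODE M21 on GRCm38 for 36174 of 37411 rows, which gave GC content and length of the longest transcript, shared stretches of 31 bases, ends and overlaps. Promoters were RefSeq's (GRCm38.p6). Named genes were every called clustered histone gene, the 3 of each core type with the highest mean CPM, the 5 lowest and 5 highest log2 fold changes at a mean count of at least 20, called genes of the other histone and proliferation lists, and H3f3b, H2afz, H1f0, Slbp and Mki67. The members, lists and rules were chosen with earlier results of these data known.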

Additional observations from a re-analysis of the deposited data

How the results depend on the processing

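Of the alternatives run on counts of calls and summed levels, 126 values were counted as close to the reported one and 56 as moved. Those counted as close include log2 ratios of summed levels that came much nearer 0. Of the alternatives run on single named genes, 460 kept their direction and side of the threshold, 57 passed it, 22 no longer did and 19 changed sign. No summed level changed direction or moved by more than its SD. Leaving out 1 of 3 libraries can hardly move a mean by its SD, so this does not show that the sums are stable. The log2 ratios of H1 and H2A, −0.53 and −0.49, rested in part on library 1 (−0.29 and −0.28 without it). Those of H2B and H3, −0.47 and −0.82, rested in part on library 6 (−0.24 and −0.49 without it). The cause of the changes was not tested. Over the whole table, 217 genes were called lower and 28 higher by edgeR; DESeq2 called 979 and 796, limma-voom with quality weights 3392 and 3403, removal of the GC trend 0 and 0, and removal of the GC trend without library 6 2724 and 2707. Median-ratio (RLE) factors gave 113 lower, and no filter on low counts gave 46 higher. Leaving out 1 library at a time gave 0 to 2902 lower and 0 to 2796 higher, and only leaving out library 6 gave more than 0. Clustered histone genes called lower, 2 by edgeR, were 15 by DESeq2, 1 by limma-voom, 20 with quality weights, 0 with RLE factors, 1 with a mean count of at least 50, 0 with the GC trend removed, 13 with the GC trend removed and without library 6, 1 with identical proteins summed, and 0 to 16 with 1 library left out. Those called higher, 0 by edgeR, were 1 by DESeq2, 3 with quality weights, 1 with the GC trend removed and without library 6, and 0 to 1 with 1 library left out. The median log2 fold change of the tested clustered histone genes was below 0 under every setting run, from −1.08 without library 4 to −0.33 with the GC trend removed and without library 6; the median of all tested genes was 0.02, −0.09 with library size alone and 0.08 without the filter.

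For the replacement, transcription and processing, chaperone and proliferation lists, and for single genes outside the naming rule, the alternatives were chosen after seeing the data, and edgeR called 0 in each of these 4 lists. Replacement histone genes called were 4 by DESeq2, 8 with quality weights, 3 with the GC trend removed and without library 6, and 0 to 6 with 1 library left out. For transcription and processing genes these counts were 5, 9, 5 and 0 to 7, for chaperones 2, 5, 3 and 0 to 2, and for proliferation genes 3, 14, 11 and 0 to 11. Of all tested genes, DESeq2 called 6.03% lower and 4.9% higher, and the fit with quality weights 20.9% and 21%. With the GC trend removed and without library 6, 2724 and 2707 of 16941 were called, and without library 6 alone 17.1% and 16.5%. Estimates that changed sign were Hist1h3i (0.26 with the GC trend removed, 0.37 also without library 6), H3f3b (−0.0752 and −0.00558), Hist1h2bj (0.19 and 0.452), H1f0 and Hist1h4i (0.0537 and 0.0972, both in the second of these), Hist1h4i with quality weights (0.0659), Hist1h1b with limma-voom (−0.0111), and Hist1h1b and Hist1h4b with library size alone (−0.098 and −0.101). With 1 library left out, Hist1h1b ran from −0.155 to 0.289, Hist1h4b from −0.291 to 0.278 and Hist1h4i from −0.436 to 0.112. Of the 31 clustered histone genes named with an estimate, 13 moved by over 1.5 times with quality weights, 12 with the GC trend removed, 10 without library 1, 9 without library 6, and 20 with the GC trend removed and without library 6. No paired analysis was possible because the libraries of the groups share no replicate numbers. Few counts limit the precision of H2A genes such as Hist1h2ab and Hist1h2ai, which held under 100 counts in each library; for the 5 H2A genes at 0 in every library, the part of depth, of shared sequence and of overlapping genes was not tested.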
